A study of Mus musculus with 2 samples.

Results

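Chemokines are small secreted proteins that draw leukocytes along a concentration gradient, and tumour cells can make many of them. The genes described here are 10 chemokine ligands, picked by name from the deposited table of 55337 gene symbols: Ccl20, Cxcl1, Cxcl2, Cxcl3, Cxcl5, Ccl2, Ccl7, Cxcl10, Cxcl16 and Cx3cl1. They were chosen with their values known, Ccl20 having been seen among the highest ratios of the table, so their differences are a description and carry no test. All 10 were found, each in 1 row. The series compared gemcitabine-resistant KPC2 cells, a pancreatic cancer line of the mouse kept long term in 260 ng/mL gemcitabine, with wild type KPC2 cells that received no drug. Gemcitabine is a deoxycytidine analogue used against pancreatic cancer. Both were grown in the same serum-supplemented medium, and 1 RNA-seq library was made of each. With 1 library per group, no difference below has a replicate check, and an effect of gemcitabine present during culture and a stable change in the line cannot be told apart. The labels do not say whether the resistant line is a single clone.

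Chemokines are classed by the spacing of the cysteines near their N terminus and act through G protein-coupled receptors. CXC ligands with the residues Glu-Leu-Arg just before the cysteines, the ELR motif, act on CXCR2 and draw neutrophils. Those without it do not: Cxcl10 acts on CXCR3 of activated T cells. Ccl2 and Ccl7 act on CCR2 of monocytes, and Ccl20 acts on CCR6, found on dendritic cell, B cell and Th17 cell subsets. Cxcl16 and Cx3cl1 are made as transmembrane proteins and can be shed from the surface by the proteases Adam10 and Adam17.

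The coding sequences around the CXC cysteines show this division among the members. The lines below give 48 bases of the GENCODE M21 transcripts (GRCm38), all within exon 2. Capitals mark the codons of Glu-Leu-Arg and Cys-X-Cys in Cxcl1, Cxcl2, Cxcl3 and Cxcl5, and those of Cys-X-Cys alone in Cxcl10 and Cxcl16, which have no ELR motif.
Cxcl1, chr5:90891472-90891519, plus strand: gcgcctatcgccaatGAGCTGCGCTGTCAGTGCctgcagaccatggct
Cxcl2, chr5:90904118-90904165, plus strand: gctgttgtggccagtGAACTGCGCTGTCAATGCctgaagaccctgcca
Cxcl3, chr5:90786344-90786391, plus strand: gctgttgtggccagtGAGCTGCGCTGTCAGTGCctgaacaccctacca
Cxcl5, chr5:90759703-90759750, plus strand: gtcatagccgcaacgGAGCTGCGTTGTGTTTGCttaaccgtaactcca
Cxcl10, chr5:92348166-92348213, minus strand: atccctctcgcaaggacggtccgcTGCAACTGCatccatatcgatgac
Cxcl16, chr11:70459112-70459159, minus strand: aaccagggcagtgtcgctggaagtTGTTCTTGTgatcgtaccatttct

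Over the aligned bases of their coding sequences Cxcl2 and Cxcl3 were 89.8% identical, Cxcl1 and Cxcl2 78.7%, and Cxcl1 and Cxcl3 75.6%. Cxcl5 was 58.4% to 61.6% identical to these 3 genes, over 284 to 303 aligned bases, its own coding sequence having 399 bases. Ccl2 and Ccl7 were 65.6% identical over 291 aligned bases. The transcripts of Cxcl2 and Cxcl3 share a stretch of 354 bases with 98.3% identity, and the table does not say how fragments that fit both genes were counted. The split between these 2 genes is therefore uncertain. No other member had a stretch of at least 100 bases with at least 90% identity to another gene, apart from Cxcl16 and Cxcl10, whose exons overlap those of a gene on the opposite strand. That neighbour was Zmynd15 for Cxcl16 (0.74 FPKM in resistant and 0.87 FPKM in wild type cells) and Art3 for Cxcl10, listed at 0 in both libraries.

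Values are FPKM, fragments per kilobase of transcript scaled to library size, as the authors deposited them, and are comparable between genes because they are per length. The term measured is used for the 12193 symbols that reached 1 FPKM in either library. Differences are log2((resistant FPKM + 1)/(wild type FPKM + 1)), with 2-fold meaning a log2 ratio of 1 or more in either direction. This scale understates differences of low genes. By this rule 963 measured genes, or 7.9%, were higher in resistant cells and 1021, or 8.37%, were lower. The median ratio was 0.02. Of the 10 ligands, 8 were measured. Among these, 5 were higher in resistant cells by 2-fold or more (Ccl20, Ccl2, Cxcl2, Cxcl16 and Cxcl1), none was 2-fold lower, and 3 lay within 2-fold. The members were chosen on this same contrast, so nothing is read from the count, and Cxcl2 passed the level filter only through the resistant library, where it is high. The median log2 ratio was 1.51 over the 8 measured ligands and 0.86 over all 10. Ccl7 and Cxcl10 stayed below 1 FPKM in both libraries. Intervals given below come from whole-fragment steps in the low values, are exact at 95%, and cover counting error only. In bulk RNA, more cells of a kind and more RNA per cell cannot be told apart.

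**Figure D1:**
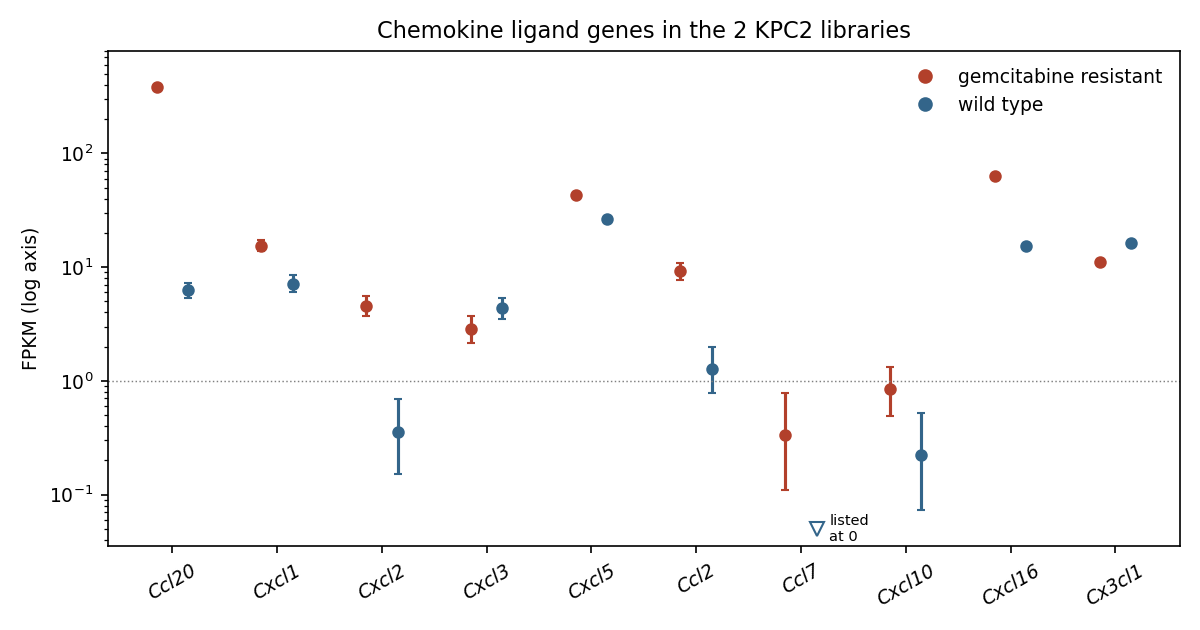
FPKM of the 10 chemokine ligand genes on a log axis, resistant library left of wild type in each pair, with bars for the exact 95% Poisson counting interval and a dotted line at 1 FPKM. Ccl20 stands at 381 FPKM in the resistant and 6.25 FPKM in the wild type library, while Cxcl3 and Cx3cl1 are lower in the resistant one. The open triangle marks Ccl7, listed at 0 in the wild type.

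Ccl20 stood far above the rest of the family in resistant cells. This CCR6 ligand, encoded on chromosome 1 (83116766 to 83119167, plus strand), had 381 FPKM in resistant cells and 6.25 FPKM in wild type cells, a log2 ratio of 5.72. The ratio ranked 21st from the top of the 12193 measured genes. Without a pseudocount the values were 60.9-fold apart, with a counting interval of 52.9 to 70.9. The resistant value rests on about 11106 fragments and the wild type value on about 188 if the longest annotated transcript is taken, or on 5407 and 91.7 if the shortest is. In level, Ccl20 stood at the 97.7 percentile of measured genes in resistant cells, against the 36.3 percentile in wild type cells. The nearest measured protein-coding genes lay 216 kb before it and 1602 kb after it. Agfg1 stood at 44.3 against 30.5 FPKM and Trip12 at 78.9 against 64.1 FPKM, both within 2-fold. The second nearest were Tm4sf20, 348 kb before it at 0.78 against 1.08 FPKM, and Fbxo36, 1721 kb after it. Fbxo36 stood at 5.19 against 0.96 FPKM, past 2-fold. In the authors' deposited table Ccl20 was the only one of the 9 ligands they tested that they called, with a q-value of 0.0385. Over all genes their test called 56 of 13850, or 0.404%, and it rests on the same 2 libraries.

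**Figure D2:**
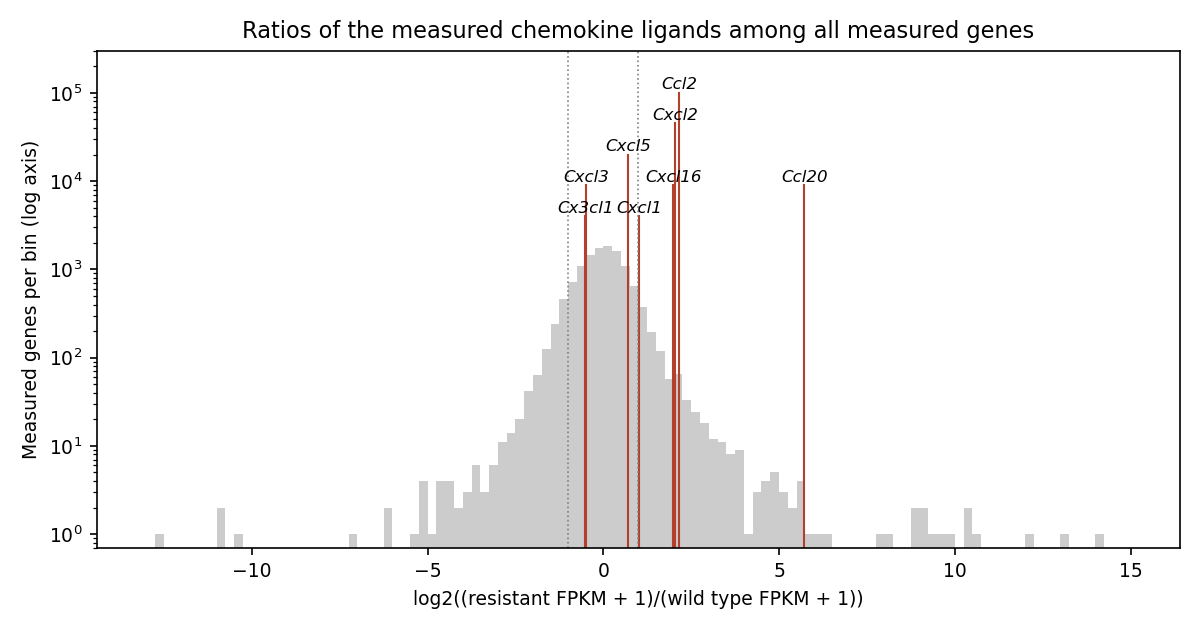
Histogram of log2((resistant FPKM + 1)/(wild type FPKM + 1)) over 12193 measured genes, in bins of 0.25 with a log axis for the number of genes, and red lines for the 8 measured chemokine ligands. Dotted lines mark 2-fold, and the heights of the red lines carry no value. Ccl20 lies at 5.72 in the right tail, Ccl2, Cxcl2 and Cxcl16 lie between 1.99 and 2.17, and Cxcl3 and Cx3cl1 lie left of 0.

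The 4 ELR ligands did not move alike. Cxcl5 was the most abundant of them in both libraries, at 43.2 FPKM in resistant and 26.3 FPKM in wild type cells, a log2 ratio of 0.70 that lay within 2-fold. Cxcl1, the ligand also known as KC in the mouse, stood at 15.5 against 7.13 FPKM, a log2 ratio of 1.02 just past the 2-fold line. Cxcl2, known as MIP-2, had 4.59 FPKM in resistant and 0.35 FPKM in wild type cells, a log2 ratio of 2.05. The wild type value of Cxcl2 corresponds to about 8.02 fragments, so the 13.0-fold difference without a pseudocount has a wide counting interval of 6.38 to 31.0. Cxcl3 went the other way, at 2.87 against 4.40 FPKM with a log2 ratio of -0.48, and its fold of 0.65 had an interval of 0.46 to 0.92. Because Cxcl2 and Cxcl3 share much of their sequence, their sum is also given: 7.46 FPKM in resistant cells and 4.76 FPKM in wild type cells, 1.57-fold higher. The transcripts differ in length (1109 and 1016 bases), so this FPKM sum too depends on how fragments were split. The 4 genes together summed to 66.2 against 38.2 FPKM, 1.73-fold higher in resistant cells, most of it Cxcl5.

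These genes sit in 1 cluster of 147 kb on chromosome 5, all on the plus strand. In order they are Cxcl5 (90759360 to 90761624), Ppbp, Pf4, Cxcl3 (90786103 to 90789600), Cxcl15, Cxcl1 (90891241 to 90893115) and Cxcl2 (90903871 to 90905938). The chemokine genes between the members were low. Ppbp, another ELR ligand, had 1.17 FPKM in resistant and 0.27 FPKM in wild type cells. The platelet gene Pf4 was listed at 0 in resistant cells, against 0.34 FPKM in wild type cells, and Cxcl15 had 0.02 FPKM in both. Position did not order the ratios: Cxcl1 and Cxcl2, 10.8 kb apart at the far end, had the highest, 1.02 and 2.05, and Cxcl3, between them and Cxcl5, had the lowest of the measured genes. Outside the cluster, Rassf6 on the Cxcl5 side (30.3 against 30.4 FPKM) and Mthfd2l on the Cxcl2 side (5.58 against 8.16 FPKM) lay within 2-fold. Farther out, Afp on the Cxcl5 side (3.53 against 0.94 FPKM) was past 2-fold, higher in resistant cells. Ereg on the Cxcl2 side (6.74 against 6.86 FPKM) lay within it.

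**Figure D3:**
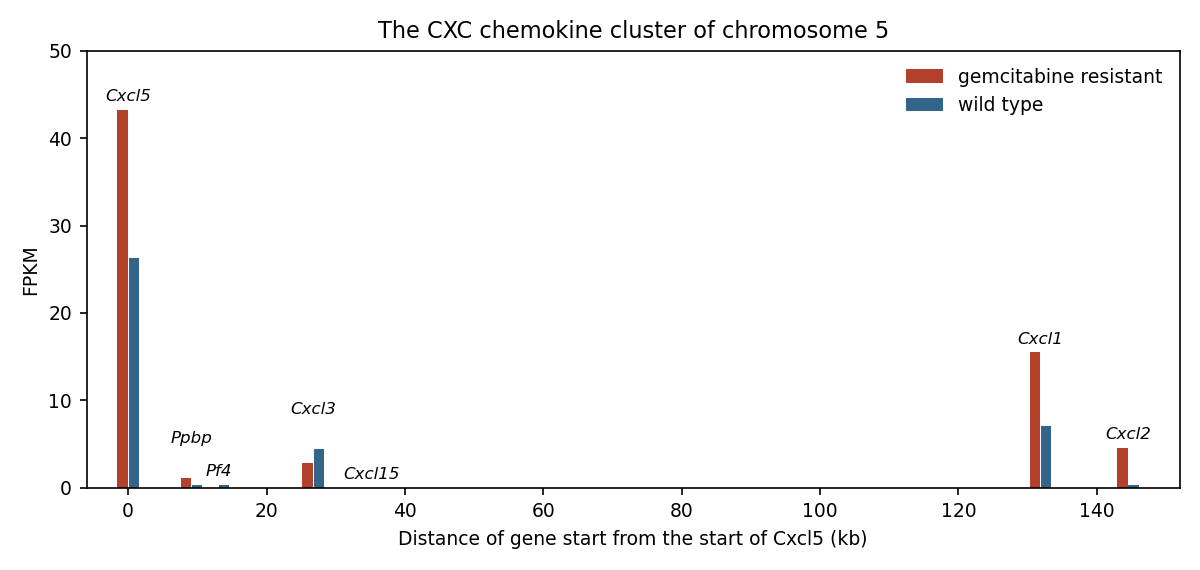
FPKM of the 7 genes of the chromosome 5 cluster by the distance of each gene's start from that of Cxcl5 in kb, resistant bars left of wild type bars; bar widths do not show gene lengths. Cxcl5 is highest at 43.2 and 26.3 FPKM. Cxcl1 and Cxcl2 at 132 and 145 kb are higher in the resistant library, Cxcl3 at 26.7 kb is lower, and Cxcl15 at 35.2 kb is close to 0.

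Of the monocyte-attracting ligands, Ccl2, also called MCP-1, stood at 9.25 FPKM in resistant and 1.28 FPKM in wild type cells, a log2 ratio of 2.17. It rests on about 140.2 and 20.1 fragments, and its 7.21-fold difference had a counting interval of 4.51 to 12.2. Its neighbour Ccl7, 8.26 kb downstream on chromosome 11, was close to the limit of detection, at 0.34 FPKM in resistant cells, about 5.01 fragments, and listed at 0 in wild type cells. The same cluster holds Ccl11, Ccl12 and Ccl1, listed at 0 in both libraries, and Ccl8, at 0.25 FPKM in resistant cells and listed at 0 in wild type cells. Ccl2 was therefore the one gene of that cluster that reached 1 FPKM. Outside the cluster, the nearest measured protein-coding genes before Ccl2 were Tmem98 (53.6 against 34.3 FPKM, 1214 kb) and Myo1d (55.3 against 24.1 FPKM, 1256 kb). Those after Ccl2 were Zfp830 (4.43 against 9.36 FPKM, 727 kb) and Lig3 (12.8 against 9.14 FPKM, 744 kb). Of these, Myo1d alone was past 2-fold, higher in resistant cells. In the authors' deposited table Ccl2 had a q-value of 0.998 and was not called.

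Cxcl10, an interferon-inducible attractant of T cells, stayed below the filter at 0.84 FPKM in resistant and 0.22 FPKM in wild type cells, about 18.3 and 4.99 fragments. The 3.78-fold difference had an interval of 1.33 to 12.8. The other CXCR3 ligands were not seen at that level: Cxcl9 had 0.03 FPKM in resistant cells and was listed at 0 in wild type cells, and Cxcl11 was listed at 0 in both.

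The membrane-bound ligands Cxcl16 and Cx3cl1 went in different directions. Cxcl16, the ligand of CXCR6, stood at 64.0 FPKM in resistant and 15.3 FPKM in wild type cells, 4.18-fold higher with an interval of 3.89 to 4.49 and a log2 ratio of 1.99. Cx3cl1, or fractalkine, stood at 11.1 against 16.3 FPKM, with a log2 ratio of -0.51 and a fold of 0.68 (0.62 to 0.75). That interval takes the transcript of 3315 bases, with about 814 and 1232 fragments. On the shortest coding transcript, of 377 bases, the values would rest on 56.0 and 84.8 fragments and the interval would be 0.48 to 0.97. The genes of both sheddases were close between the libraries, with Adam10 at 49.4 against 48.4 FPKM and Adam17 at 12.5 against 14.6 FPKM. Dpp4, the peptidase that trims the N terminus of Cxcl10, was listed at 0 in both. Beside Cxcl16, which spans 70453983 to 70459984 of chromosome 11, the measured neighbours Med11 (20.6 against 25.1 FPKM) and Arrb2 (11.9 against 13.2 FPKM) lay within 2-fold. Cx3cl1 lies at 94772009 to 94782427 of chromosome 8 between Ccl22, listed at 0 in both libraries, and Ccl17, listed at 0 in resistant cells against 0.24 FPKM in wild type cells. Its nearest measured neighbours after it, Ciapin1 (14.7 against 18.8 FPKM, 37.4 kb) and Coq9 (20.2 against 17.6 FPKM, 55.9 kb), lay within 2-fold. Before it and farther away, Pllp (23.6 against 45.5 FPKM, 75.7 kb) lay within 2-fold and Arl2bp (34.7 against 79.9 FPKM, 97.6 kb) was past it, lower in resistant cells.

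The order of the ligands by level differed between the libraries. In resistant cells it ran from Ccl20 through Cxcl16, Cxcl5, Cxcl1, Cx3cl1, Ccl2, Cxcl2, Cxcl3 and Cxcl10 to Ccl7, and among the 8 measured genes only the counting intervals of Cx3cl1 and Ccl2 overlapped between neighbours. On its shortest transcript, the Cx3cl1 interval (8.40 to 14.4 FPKM) also overlapped that of Cxcl1. In wild type cells it ran from Cxcl5 through Cx3cl1, Cxcl16, Cxcl1, Ccl20, Cxcl3, Ccl2, Cxcl2 and Cxcl10 to Ccl7. There the neighbours Cx3cl1 and Cxcl16, Cxcl1 and Ccl20, and Ccl20 and Cxcl3 overlapped, as did, below 1 FPKM, Cxcl2 and Cxcl10, and Cxcl10 and Ccl7. Summed over the 10 genes the level was 532.5 FPKM in resistant and 77.5 FPKM in wild type cells. Ccl20 made up 71.5% of that sum in resistant cells and 8.06% in wild type cells, and Cxcl5 made up 8.12% and 33.9%. Without Ccl20 the sums were 151.7 against 71.3 FPKM, a 2.13-fold difference, and without Cxcl16 as well they were 87.8 against 56.0 FPKM, 1.57-fold.

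Promoter windows from RefSeq (GRCm38.p6, 250 bases before to 50 after the annotated start) were found for 6 of the 10 genes. A kappa-B motif, the site of NF-kB factors, was searched on both strands as GGGA and CC with any 4 bases between them and found in Ccl20, Cxcl1, Cxcl2, Cxcl3 and Cxcl10 but not in the Cx3cl1 window. Of 32851 such windows in the genome 20.7% hold it, so a match alone is common. The RefSeq start of Cx3cl1 lies 171 bases after the GENCODE one, so most of its window falls inside the GENCODE gene. Little of the sequence before the GENCODE start of Cx3cl1 was therefore searched. The 120 bases before the RefSeq start are shown for the 5 genes with a match, of which Cxcl1, Cxcl2 and Cxcl3 share the exact run GGGAATTTCCC. Capitals mark the kappa-B motif, overlapping matches on the 2 strands joined.
Ccl20, chr1:83116646-83116765, plus strand: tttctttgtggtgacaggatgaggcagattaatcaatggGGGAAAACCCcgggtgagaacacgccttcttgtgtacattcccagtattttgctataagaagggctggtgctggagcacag
Cxcl1, chr5:90891125-90891244, plus strand: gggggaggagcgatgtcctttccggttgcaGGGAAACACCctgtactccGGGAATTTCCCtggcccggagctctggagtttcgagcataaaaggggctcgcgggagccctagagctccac
Cxcl2, chr5:90903779-90903898, plus strand: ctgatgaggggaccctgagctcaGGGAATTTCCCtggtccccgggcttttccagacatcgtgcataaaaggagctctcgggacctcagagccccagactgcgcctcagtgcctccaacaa
Cxcl3, chr5:90785981-90786100, plus strand: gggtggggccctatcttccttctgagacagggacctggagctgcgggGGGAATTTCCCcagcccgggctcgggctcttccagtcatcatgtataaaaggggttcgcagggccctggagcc
Cxcl10, chr5:92348890-92349009, minus strand: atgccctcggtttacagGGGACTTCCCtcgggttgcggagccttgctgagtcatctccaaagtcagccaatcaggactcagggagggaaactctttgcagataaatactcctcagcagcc

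The run GGGAATTTCCC, singled out after the sequences were read, is the longest one around the motif common to the 3 windows. It begins at position -71 from the start in Cxcl1, -97 in Cxcl2 and -73 in Cxcl3. The RefSeq start of Cxcl2 lies 28 bases after the GENCODE one, and 14 of all windows, 0.04%, hold this run. Other motifs differed among the members. An AP-1 motif (TGANTCA, in 7.81% of windows) was found in Cxcl10, as was an interferon response motif (GAAA and GAAA with any 2 bases between them, in 3.44%). The TATA box letters TATAAA, in 13.6% of windows, were found at position -30 in Cxcl3 and at -6, directly before the RefSeq start, in Cx3cl1. A CEBP-ATF motif (TGATGNAA, in 3.97%) was found in none of the 6. These are matches of letters, not measured binding. Cxcl1, Cxcl2 and Cxcl3, which share the kappa-B run, had log2 ratios of 1.02, 2.05 and -0.48. The split between Cxcl2 and Cxcl3 is uncertain, as said above. Any part of the motifs in the ratios was not tested.

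**Figure D4:**
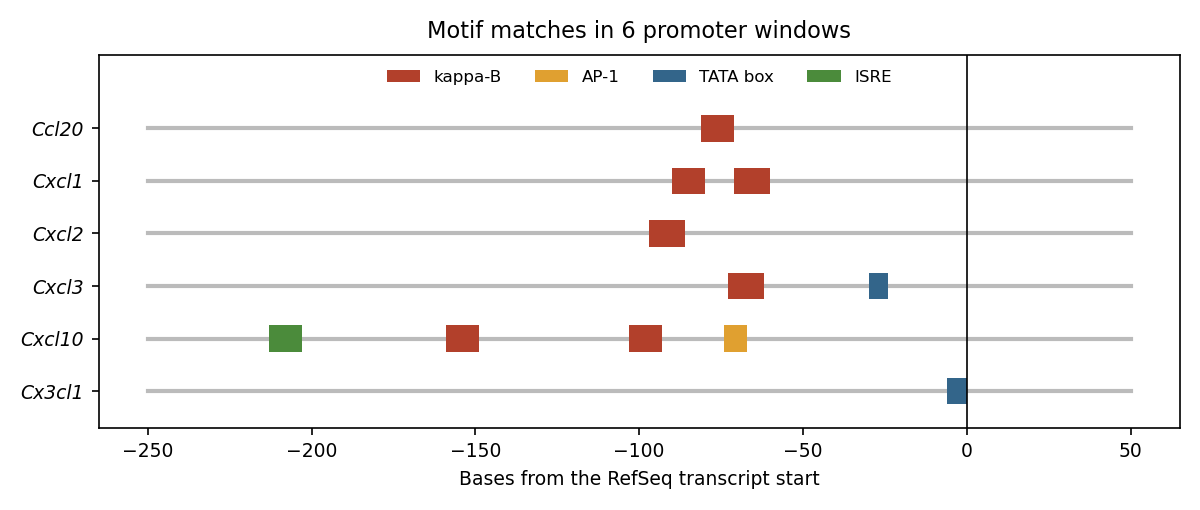
Matches of 4 motifs in the 6 promoter windows, by bases from the RefSeq transcript start (black line), each coloured block covering the bases of a match. Kappa-B matches lie before the start in Ccl20, Cxcl1, Cxcl2, Cxcl3 and Cxcl10. The Cx3cl1 window, mostly inside the GENCODE gene, has a TATA box match alone, at -6.

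Messages of many chemokines carry AU-rich elements, built around the pentamer ATTTA, through which RNA-binding proteins control their decay. In the longest annotated 3' UTR, Cxcl1 held 7 such pentamers, or 11.8 per kb, and Ccl20 held 9, or 8.57 per kb. Cxcl3 had 7.75 and Cxcl2 7.36 per kb. The median of 10395 measured protein-coding genes was 1.34 per kb, and these 4 genes each had a higher density than at least 97.9% of them. Ccl7 (4.60 per kb), Cxcl5 (4.50), Ccl2 (3.64) and Cxcl10 (3.01) lay lower, each still denser than at least 80.2% of those genes. The 3' UTRs taken for Cxcl2 (1494 bases) and Cxcl10 (996 bases) belong to other transcripts than those used for fragments. The latter, of 1109 and 1094 bases, are too short to hold them beside the coding sequence. The membrane-bound Cxcl16 (1.41) and Cx3cl1 (0.53) had the lowest densities of the 10 ligands, higher than those of 51.6% and 32.8% of genes. Among 9 genes that regulate the decay of such messages, all measured, 8 lay within 2-fold, beside 83.7% of all measured genes, and Hnrnpd, which encodes the AU-rich element binding protein AUF1, was lower in resistant cells (89.4 against 189.5 FPKM). Tristetraprolin, Zfp36, stood at 12.7 against 6.66 FPKM, and the list's median log2 ratio was -0.06.

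The rest of the chemokine family was nearly silent in both libraries. Of 31 other chemokine ligand genes 5 were measured and none differed by 2-fold, against 7.9% of all measured genes at least 2-fold higher and 8.37% at least 2-fold lower. Ccl25 stood at 4.58 against 2.19 FPKM, Cxcl17 at 2.59 against 1.68, Ccl27a at 2.09 against 1.28, Ccl9 at 1.16 against 0.55, and Ppbp as given above. The log2 ratios of these 5 ran from 0.42 to 0.81 with a median of 0.48. Without a pseudocount the folds were 4.30 for Ppbp, 2.10 for Ccl9, 2.09 for Ccl25, 1.64 for Ccl27a and 1.54 for Cxcl17. Ccl9 and Ppbp passed the level filter only through the resistant library, which fixed their direction. Listed at 0 in both libraries were 19 of the 31, Cxcl12 among them.

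The receptors of these ligands were not measured in the cells themselves. None of 18 conventional chemokine receptor genes reached 1 FPKM, and their highest value was 0.07 FPKM in resistant cells (Cxcr6) and 0.18 FPKM in wild type cells (Cx3cr1). Listed at 0 in both were 9 of them, among these Ccr6, Cxcr2, Ccr2 and Cxcr3, the receptors of Ccl20, of the ELR ligands, of Ccl2 and Ccl7, and of Cxcl10. Of 5 atypical receptors, which bind chemokines without G protein signalling, Ackr3 alone was measured. This scavenger of Cxcl12 was at least 2-fold lower in resistant cells, at 1.41 against 6.18 FPKM, a log2 ratio of -1.58.

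Chemokine genes are textbook targets of NF-kB, which IL-1 and TNF switch on. All 14 NF-kB subunit, inhibitor and kinase genes were measured and 13 lay within 2-fold, as did 83.7% of all measured genes, with a median log2 ratio of 0.05. The exception was Rela, the main activating subunit, with 13.8 FPKM in resistant cells and 40.3 FPKM in wild type cells, a log2 ratio of -1.48. The inhibitor gene Nfkbia stood at 14.9 against 14.8 FPKM and Tnfaip3 at 7.57 against 5.30. Relb stood at 6.70 against 3.17, a log2 ratio of 0.89 and the highest of the list. These 3 genes were named after their values were seen.

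Among 20 genes of cytokines, receptors and adaptors that induce chemokines, 15 were measured, 2 were at least 2-fold higher and 1 was lower, beside 7.9% and 8.37% of all measured genes. Il1a, an IL-1 receptor agonist, stood at 5.96 FPKM in resistant cells and 0.02 FPKM in wild type cells, and its antagonist Il1rn at 193 against 15.1 FPKM. The adaptor gene Myd88 was lower, at 4.26 against 11.7 FPKM. The receptor gene Il1r1 stood at 5.87 against 10.9 FPKM and Tnf at 0.44 against 0.06 FPKM, while Il1b was listed at 0 in both; these 3 were named after their values were seen. The list's median was 0.07.

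Of 17 other transcription factor genes known to act on chemokine genes, 15 were measured, 4 were at least 2-fold higher and none was lower, with a median of 0.43. Over all measured genes these shares were 7.9% and 8.37% and the median 0.02, which also stand beside the next 2 lists. Among the higher ones were the stress factors Atf3 (53.1 against 2.29 FPKM) and Atf4 (392 against 164.4) and, named after its values were seen, the AP-1 gene Jun (6.89 against 2.71). Among 16 other factors acting on myeloid cells 9 were measured and 2 were at least 2-fold higher, Vegfa (50.04 against 13.5 FPKM) and Il18 (1.99 against 0.38), with a median of 0.80. Of 16 interferon-inducible genes set beside Cxcl10 only 4 were measured. Past 2-fold, both higher, were Ddx58 (4.88 against 1.603 FPKM) and Oas1a (1.20 against 0.02), and the median was 0.64. Il1a, Irf7, Il18, Il34 and Oas1a passed the level filter only through the resistant library, and Ifit2 only through the wild type one.

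**Figure D5:**
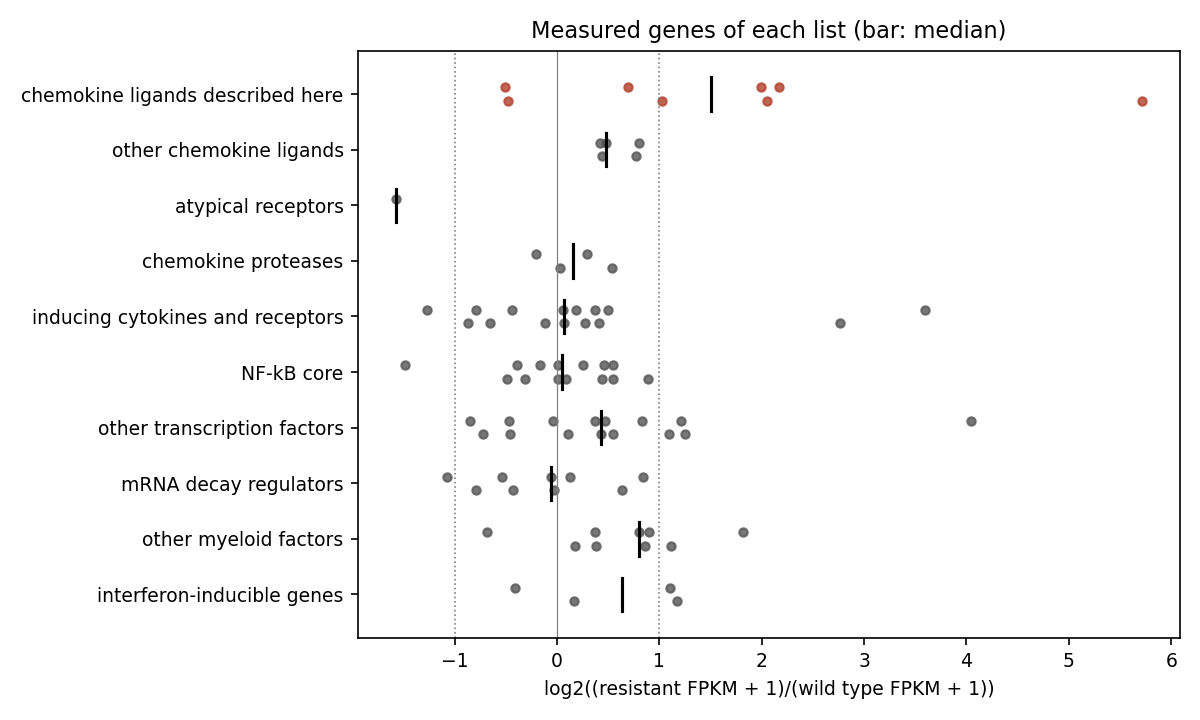
Log2((resistant FPKM + 1)/(wild type FPKM + 1)) of each measured gene in the chemokine ligands described here (red) and in 9 related gene lists (grey), with a black bar at each median and dotted lines at 2-fold. The chemokine ligands spread from -0.51 to 5.72, while the NF-kB genes lie between -1.48 and 0.89 around a median of 0.05.

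Markers of other cells were checked because leukocytes and fibroblasts also make these ligands. The keratin genes Krt8, Krt18 and Krt19 of epithelial tumour cells stood at 1722, 1864 and 1738 FPKM in resistant and 1176, 1123 and 1332 FPKM in wild type cells, and Cdh1 at 164.1 against 206 FPKM. Krt7, also a keratin of ductal epithelium, stood at 32.6 against 7.56 FPKM, a log2 ratio of 1.97. Of 6 measured epithelial markers it alone was past 2-fold, while 83.7% of all measured genes lay within 2-fold. Epcam, also an epithelial marker, was near 0, at 0.10 against 0.21 FPKM, as were Cldn4 and Cldn7. Of 13 leukocyte markers 3 were measured: Cd14 (25.7 against 36.8 FPKM), Cd68 (5.48 against 1.17) and Lyz2 (1.53 against 0.36). Cd68 alone of these was past 2-fold, with a log2 ratio of 1.58. Lyz2 passed the level filter only through the resistant library. The list summed to 33.6 against 38.6 FPKM, most of it Cd14, the only measured marker that was lower in resistant cells. Below the filter, Laptm5 had 0.67 against 0.04 FPKM. Adgre1, Itgam, Csf1r and Tyrobp were lower in resistant cells, Tyrobp having the highest value, 0.10 FPKM in wild type cells. Itgax, Cd3e and Fcer1g were listed at 0 in both libraries, and Ptprc, found on all leukocytes, had 0.23 FPKM in resistant cells and was listed at 0 in wild type cells. None of 10 fibroblast markers was measured, and they summed to 0.76 against 0.45 FPKM. Of 8 endothelial markers Egfl7 alone (10.2 against 7.48 FPKM) was measured, and of 8 acinar markers Cela1 alone (1.48 against 4.38 FPKM). Cela1 was past 2-fold, with a log2 ratio of -1.12. The part of the Krt7, Cd68 and Lyz2 differences in the chemokine results was not tested.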

How the data were processed

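RNA of gemcitabine-resistant and wild type KPC2 cells was sequenced, 1 library per group. HISAT2, StringTie and the build GRCm38 are named, per the submitters' processing notes, with no role or version. The deposited table has 55468 gene rows, without a unit in its header. FPKM, computed by the authors, was inferred as the unit: the library sums are unequal (1197280 resistant, 998508 wild type) and low values fall on steps that depend on transcript length. Per the file headers, each gene also has a p-value and a q-value of the authors, quoted only as theirs.

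Rows of 1 symbol were summed, and 13 rows marked by the authors as failed or too deep were left out, none of them a list gene. A pseudocount of 1 FPKM and a level filter of 1 FPKM were used. No test was computed. Shortening single transcripts of 1000 to 8000 bases by 160 bases turned 93.8% of low resistant and 92.8% of low wild type values into whole fragments (tolerance 0.1). In shorter transcripts, from 500 bases on, it did so for 94.0% and 94.5%. Per 1 kb of what remains, 1 fragment was worth 0.0431 FPKM in the resistant and 0.0417 FPKM in the wild type library. Fragments of each ligand were estimated on its GENCODE transcript numbered 201, a choice made after seeing that low values then came out whole. Poisson intervals of levels and Clopper-Pearson intervals of folds are at 95%.

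Members, lists and motifs were chosen with earlier results of these data known. All 10 ligands are named, as are measured genes of the other chemokine and receptor lists, up to 3 genes in each direction past 2-fold of other lists, Adam10, Adam17 and Dpp4, and cluster and neighbouring genes by position. Marker genes and any other gene were named after their values were seen, and some list genes are not reported here. Sequences come from GENCODE M21 and RefSeq, both on GRCm38. Similar transcripts were sought with BLAST 2.17.0+, and coding sequences aligned with Biopython 1.88. Computations used scipy 1.17.1, matplotlib 3.10.9, pandas 2.3.3 and numpy 2.4.6 under Python 3.11.15, and were tested on simulated data. Alternatives were other pseudocounts, filters, scalings, row choices and thresholds.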

Additional observations from a re-analysis of the deposited data

How the results depend on the processing

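Over 7 alternatives of pseudocount, filter, scaling and row choice, 66 log2 ratios of the 10 ligands were recomputed. All kept their sign, but a pseudocount cannot change a sign. Filter and row choice leave the ratio of a ligand with 1 row as it was. Only rescaling, by factors of 0.988 and 0.963 on the resistant library, could have changed a sign. Of the 66 ratios 60 moved by less than counting error, those left as they were among them. Ccl20 ranged from 5.10 to 5.91, Cxcl16 from 1.76 to 2.06, Ccl2 from 1.18 to 2.76 and Cxcl2 from 0.84 to 3.37. Cxcl1 ranged from 0.76 to 1.11 and fell below 2-fold at a pseudocount of 5 and after rescaling to the same upper quartile. At a pseudocount of 5 the ligands at least 2-fold higher numbered 3 (Ccl20, Ccl2 and Cxcl16), and at a fold threshold of 4 they numbered 3 (Ccl20, Ccl2 and Cxcl2). At a level filter of 5 FPKM they numbered 4, Cxcl2 no longer being measured. The genes at least 2-fold higher numbered 428 at a pseudocount of 5 and 220 at a threshold of 4, and those lower numbered 1553 at a pseudocount of 0.1, 297 at a pseudocount of 5 and 128 at a threshold of 4. At a pseudocount of 0.1, 2 other chemokine ligands (Ccl25 and Ppbp) were at least 2-fold higher. Keeping protein-coding genes only, an alternative chosen after seeing the data, left 5 ligands higher. No paired analysis was possible because each group has 1 library, and no replicate could be left out. Depth limits Ccl7, Cxcl10 and the wild type value of Cxcl2, each under about 20 fragments.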
